A study of Mus musculus with 6 samples.

Results

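NF-YA binding at genes of the cytosolic ribosome and of translation was examined in mouse muscle stem cells (MuSCs), which repair skeletal muscle after injury, of wild-type animals. Members were the CUT&RUN peaks whose deposited gene symbol began with Rpl, Rps, Eif or Eef, with the Rps6k kinases left out. The rule found 56 of the 9056 peaks, at 49 genes. Of these, 32 peaks lay at 28 ribosomal protein genes and 24 peaks at 21 genes of translation factors, their kinases, binding proteins and methyltransferases. All peaks were compared with the 5146 peaks that carried a gene symbol, which belonged to 4128 symbols.

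The cells came from C57BL/6 mice of wild-type genotype and were activated and proliferating in culture. In CUT&RUN, permeabilised cells receive an antibody and then a nuclease that binds to it, and the DNA that is cut free is sequenced. There were 3 libraries made with an antibody against NF-YA, and the 3 libraries made with IgG were not analysed here, so no background level can be set beside the values. The study describes the libraries as biological replicates, without saying which animals or cultures they came from, and the SD measures the spread between them. Binding does not measure expression, so the cell label could not be checked against marker genes.

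The cytosolic ribosome consists of a small subunit, which decodes the mRNA, and a large subunit, which joins amino acids. Initiation factors (eIF) bring the mRNA, the initiator tRNA and the subunits together, and elongation factors (eEF) move the ribosome along. Mammalian ribosomal protein promoters are known for a pyrimidine-rich start and for sites of ETS factors, Sp1 and YY1 near it. NF-Y is a trimer in which NF-YA contacts the CCAAT box, most often a short distance upstream of the transcription start site (TSS). Proliferating cells make ribosomes at a high rate.

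Promoter sequences of 7 of the strongest member peaks, each with a CCAAT box upstream of the start, show the boxes in place. Each runs 5′ to 3′ on the strand of the gene and ends at the base before the annotated start, with CCAAT, or ATTGG where the box lies on the opposite strand, in capitals. Sequences were read from GRCm38 (mm10), at chr6:70844365-70844514 on the plus strand for *Eif2ak3*, chr11:69672424-69672573 on the minus strand for *Eif4a1*, chr7:45128762-45128911 on the minus strand for *Rpl13a*, chr19:8966891-8967040 on the plus strand for *Eef1g*, chr5:115559317-115559466 on the plus strand for *Rplp0*, chr7:108934267-108934416 on the plus strand for *Eif3f* and chr11:100319735-100319884 on the plus strand for *Eif1*.
Eif2ak3: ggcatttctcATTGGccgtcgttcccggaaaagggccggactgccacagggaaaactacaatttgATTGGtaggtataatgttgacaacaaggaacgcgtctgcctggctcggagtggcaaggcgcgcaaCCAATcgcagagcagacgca
Eif4a1: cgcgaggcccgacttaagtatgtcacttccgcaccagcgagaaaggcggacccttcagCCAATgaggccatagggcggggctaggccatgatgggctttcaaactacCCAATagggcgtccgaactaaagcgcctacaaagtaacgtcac
Rpl13a: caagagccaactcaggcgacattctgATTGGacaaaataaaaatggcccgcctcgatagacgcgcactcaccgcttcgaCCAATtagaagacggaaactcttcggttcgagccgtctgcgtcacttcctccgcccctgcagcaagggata
Eef1g: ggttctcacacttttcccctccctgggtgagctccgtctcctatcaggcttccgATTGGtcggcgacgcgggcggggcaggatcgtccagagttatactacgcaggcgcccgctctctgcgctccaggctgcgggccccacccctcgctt
Rplp0: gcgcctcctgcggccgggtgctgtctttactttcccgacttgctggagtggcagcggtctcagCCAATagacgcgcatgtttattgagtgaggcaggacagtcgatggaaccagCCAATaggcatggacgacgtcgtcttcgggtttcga
Eif3f: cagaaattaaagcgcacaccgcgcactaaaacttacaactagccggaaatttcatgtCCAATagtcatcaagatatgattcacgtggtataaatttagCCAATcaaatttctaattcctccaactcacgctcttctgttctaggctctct
Eif1: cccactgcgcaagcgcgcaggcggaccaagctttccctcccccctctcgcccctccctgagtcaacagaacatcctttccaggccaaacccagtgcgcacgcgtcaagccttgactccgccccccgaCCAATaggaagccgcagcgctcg

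These lines show boxes in pairs, on either strand and singly. *Rplp0*, *Eif4a1* and *Eif3f* carried a pair of boxes on the gene strand, with starts 51, 49 and 41 bp apart, respectively. *Rpl13a* and *Eef1g* had a box on the opposite strand, which in *Eef1g* was the only box of the peak. *Eif1* had 1 box, 21 bp upstream of the start. The printed stretch of *Eif2ak3* holds 3 of the 9 boxes of its peak. Not every strong member had such a box: those of *Eif5*, not printed, lay 92 and 124 bp downstream of the listed start. They were 89 and 57 bp upstream of the start of another *Eif5* transcript.

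Member peaks without a CCAAT were mostly weak, and for 2 of them the promoter is shown for contrast. These positions are chr17:56613266-56613415 on the plus strand for *Rpl36* and chr10:81176481-81176630 on the plus strand for *Eef2*, and were chosen after the values were seen. In both, the stretch runs past the end of the peak towards the start.
Rpl36: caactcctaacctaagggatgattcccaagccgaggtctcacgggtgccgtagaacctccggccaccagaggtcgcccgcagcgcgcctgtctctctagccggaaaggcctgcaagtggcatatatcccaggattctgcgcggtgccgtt
Eef2: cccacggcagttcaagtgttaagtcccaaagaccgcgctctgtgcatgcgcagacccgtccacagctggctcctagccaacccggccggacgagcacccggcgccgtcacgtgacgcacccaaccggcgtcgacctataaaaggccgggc

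Values are given as normalised reads, the rounded read number of a peak after scaling by library size factors, with no correction for peak length. In replicates 1, 2 and 3 a read was worth 0.664, 1.48 and 1.02 normalised reads, with 481324, 226955 and 334651 reads in peaks behind the values. By counting error alone, replicate 2 is thus the least precise library. A floor of 3 reads corresponds to 1.99, 4.43 and 3.06 normalised reads in replicates 1, 2 and 3. Above it in every library were 54 of the 56 members (96.4%), against 86.7% of all peaks with a gene symbol. Over all members the values summed to 2277, 2634 and 2687 normalised reads.

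As a group, genes of the ribosome and of translation factors were bound at a level typical of the whole set. The median member had 17.5, 24.5 and 22.5 normalised reads in replicates 1, 2 and 3, against 21, 22 and 22 in all peaks with a symbol. The log2 ratio of the medians of members to other peaks was -0.03 ± 0.22 (SD, n = 3), which does not exceed the spread between libraries. Of the members, 13 fell in the top quartile of all symbol peaks by mean and 12 in the bottom quartile. The values nevertheless spanned a wide range, from a mean of 4.00 normalised reads at *Eef1akmt2* to 471 at *Eif2ak3*. The median coefficient of variation (CV) over the 3 libraries was 18.5% in members and 21.3% in all symbol peaks.

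**Figure D1:**
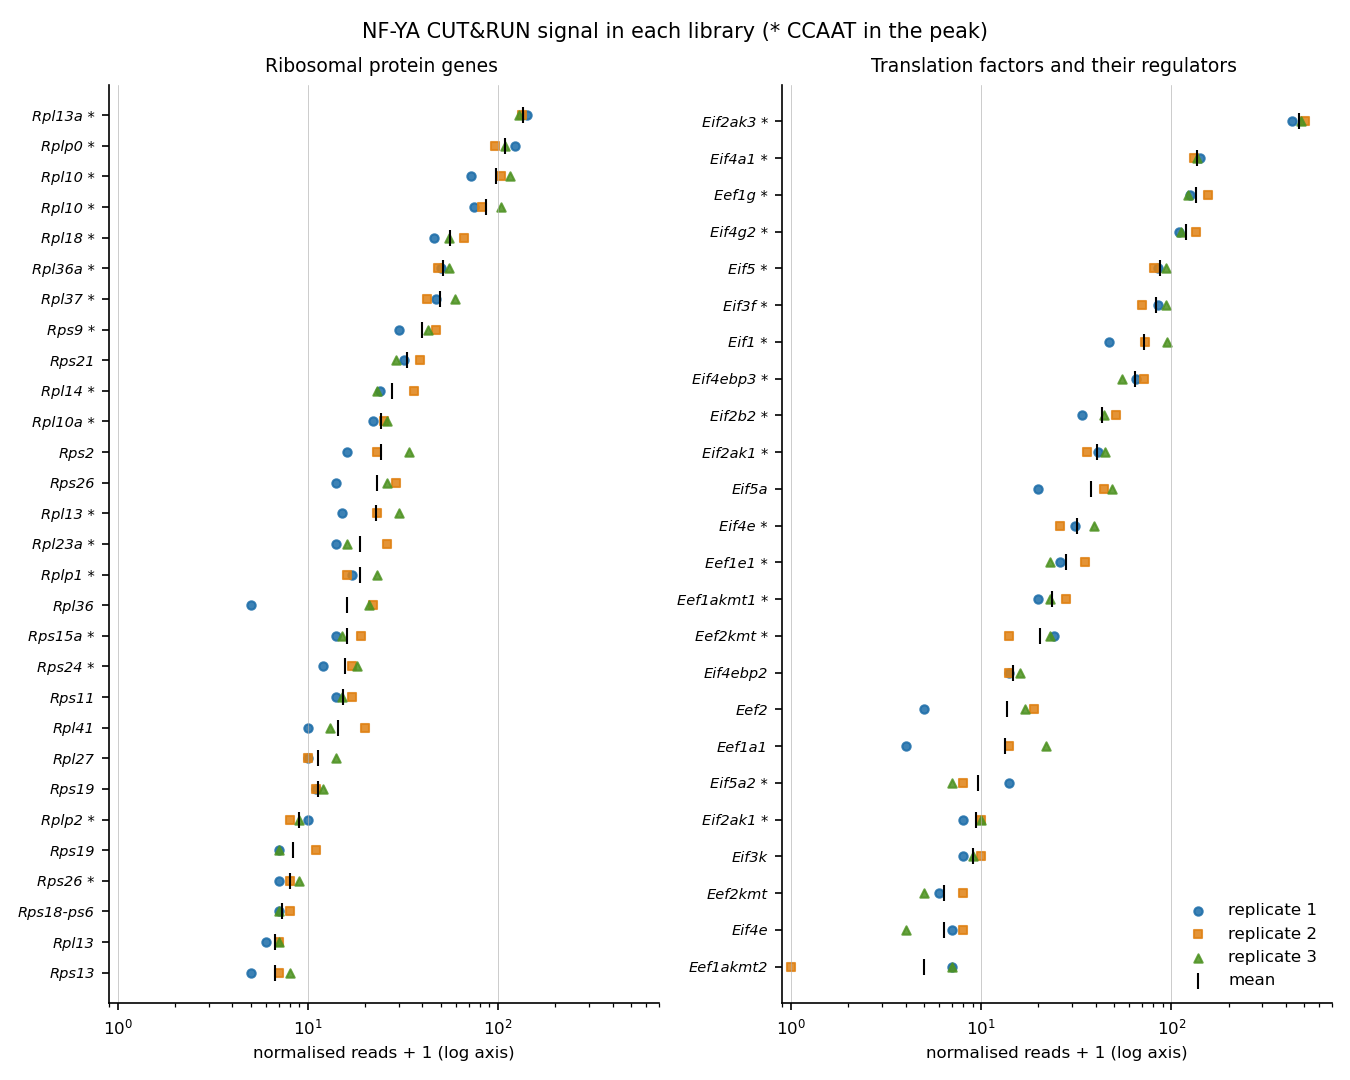
Normalised reads plus 1 (log axis) of member peaks in the 3 NF-YA libraries, sorted by mean (black bar), with ribosomal protein genes on the left and factors and their regulators on the right. Peaks with CCAAT (asterisk) fill the top of both panels, and replicate 1 lies far to the left of the others at Rpl36, Eef2 and Eef1a1.

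Among the proteins of the large subunit, *Rpl13a*, *Rplp0* and *Rpl10* carried the strongest peaks. *Rpl13a*, which also acts in transcript-selective translational control, had a peak of 441 bp at chr7:45128724-45129164. Replicates 1, 2 and 3, the order kept for all later values, gave 141, 132 and 128 normalised reads (134 ± 6.66, SD, n = 3). *Rplp0* encodes the base of the stalk that recruits GTPase factors and is widely used as a reference transcript. Its peak at chr5:115559211-115559556 had 121, 95 and 108 normalised reads (108 ± 13.0, SD, n = 3), so that the ranges of these genes did not overlap, by a small margin. *Rpl10*, whose protein joins the large subunit late in its maturation, had a pair of peaks upstream of its start. The one centred 650 bp upstream, at chrX:74269874-74270450, held 71, 103 and 115 normalised reads. The other, centred 128 bp upstream at chrX:74270554-74270814, had 74, 81 and 102. The libraries overlapped between the pair, but per kb the near peak was higher, with 328 normalised reads per kb against 167 in the far one.

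Of the remaining large-subunit peaks, *Rpl18* reached 54.7 ± 10.0 normalised reads and *Rpl37* 48.3 ± 8.74 (SD, n = 3). The 17 peaks at 15 large-subunit genes ran from 5.67 to 134 normalised reads with a median of 23.3, and 16 were promoter peaks. *Rplp1* and *Rplp2*, which pair up on the same stalk as *Rplp0*, stayed at 17.7 ± 3.79 and 8.0 ± 1.0 normalised reads. The stalk genes thus differed widely, also per kb, with 312 at *Rplp0*, 102 at *Rplp1* and 60.6 at *Rplp2*. The *Rpl18* peak also lay within 1000 bp of a start of *Sphk2*, so its signal cannot be assigned to either gene alone. The same limit holds for each of the 13 of 56 members with a start of another gene, non-coding genes included, within 1000 bp. This share was not counted over all peaks.

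The small subunit was bound at lower levels. Its 13 peaks at 11 genes had a median of 14.7 normalised reads. *Rps9*, which sits near the mRNA entry side of the subunit, had 29, 46 and 42 normalised reads (39.0 ± 8.89, SD, n = 3) at chr7:3703874-3704126. *Rps21* had 31, 38 and 28 at chr2:180257142-180257388, so that the ranges of these genes overlapped. *Rps21* had no CCAAT, whereas *Rps9* had 1 box on the strand opposite to the gene. *Rps19*, mutated in Diamond-Blackfan anaemia, had 2 weak peaks of 10.3 ± 0.577 and 7.33 ± 2.31 normalised reads, neither with a CCAAT. *Rps13* was the weakest, with 4, 6 and 7 normalised reads.

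A further pair of ribosomal symbols lay outside the subunit lists. The gene listed as *Rpl36a* has, by its identifier, the symbol *Rpl36al* in GENCODE M21, a paralog on chromosome 12. Its peak held 49, 47 and 54 normalised reads and was shared with a start of *Mgat2*. *Rps18-ps6*, a pseudogene copy, had 6, 7 and 6 in a peak 3612 bp upstream.

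Factor genes had higher levels than ribosomal protein genes in each library. The medians were 24, 30.5 and 30 normalised reads in factors against 13.5, 22 and 22.5 in ribosomal protein genes, in replicates 1, 2 and 3. The log2 ratio, ribosomal to factor, was -0.57 ± 0.23 (SD, n = 3). With 3 libraries an exact sign-flip test cannot go below p = 0.25, so no test is given. Per kb of peak the ratio was -0.55 ± 0.21. The individual peaks of the classes overlapped over nearly the whole range.

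Among initiation factors, the strongest peaks were at *Eif4a1* and *Eif4g2* of the eIF4 family, in which 3 of 12 genes had a peak. *Eif4a1*, the RNA helicase of the cap-binding complex, had 141, 130 and 136 normalised reads (136 ± 5.51, SD, n = 3) at chr11:69672292-69672715. *Eif4g2*, a scaffold for cap-independent initiation, had 109, 134 and 112 (118 ± 13.7, SD, n = 3) at chr7:111082885-111083329. These ranges overlapped. *Eif4e*, the cap-binding subunit, had 30, 25 and 38 normalised reads in the stronger of its 2 peaks, which was clearly below both. This peak lay 1014 bp downstream of the listed gene start but 92 bp upstream of the start of another *Eif4e* transcript. The weaker *Eif4e* peak had 6, 7 and 3, the last at the floor of 3 reads of replicate 3.

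*Eif5*, which activates GTP hydrolysis at the start codon, had 84, 80 and 93 normalised reads, and *Eif3f*, a subunit of the large eIF3 complex, had 84, 69 and 93. *Eif1*, a guardian of start-codon choice, had 46, 72 and 94, the widest spread of the 3. Its CV was 34.0%, with replicate 1 lowest. *Eif2b2*, a subunit of the exchange factor of eIF2, reached 42 ± 8.54 (SD, n = 3). *Eif5a*, whose protein carries the hypusine residue, had 19, 43 and 48, with replicate 1 below both others. *Eif5a2*, its paralog, had only 13, 7 and 6 normalised reads. *Eif3k* carried a peak of 7, 9 and 8 listed 9654 bp downstream of its start. Another weak peak, listed for *Map4k1* and so not a member, lay 99 bp upstream of an *Eif3k* start. It had 7, 3 and 14 normalised reads and 1 box.

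The elongation factors were split. *Eef1g*, a structural subunit of the eEF1 exchange complex, had 125, 154 and 122 normalised reads (134 ± 17.7, SD, n = 3) at chr19:8966797-8967190. *Eef1e1*, also known as a scaffold of the multi-synthetase complex, had 25, 34 and 22. By contrast *Eef2*, the translocase, had 4, 18 and 16, and *Eef1a1*, which delivers aminoacyl-tRNA, had 3, 13 and 21. Both of these abundant factors lacked a CCAAT in the peak. The *Eef1a1* peak, listed 7309 bp downstream, was 118 bp upstream of the start of another transcript of the gene.

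The strongest member of all regulates translation rather than taking part in it. *Eif2ak3*, the endoplasmic reticulum stress kinase PERK, which phosphorylates eIF2α, had 431, 502 and 479 normalised reads (471 ± 36.2, SD, n = 3). The peak at chr6:70843818-70844672 was 855 bp long and ranked 30 of 5146 by mean, or 64 per kb. No other member came near it in any library. *Eif2ak1*, the haem-regulated eIF2α kinase, had peaks of 40, 35 and 44 and of 7, 9 and 9 normalised reads, the latter 619 bp upstream. *Eif4ebp3*, a repressor of eIF4E, had 64, 71 and 54 in a peak 7228 bp upstream of its start, with 3 boxes. These boxes lay in or within 10 bp of annotated exons outside *Eif4ebp3*, so the signal cannot be assigned to this gene alone. *Eif4ebp2*, another repressor of eIF4E, had 13, 13 and 15 in a promoter peak without a box. The methyltransferase genes *Eef1akmt1*, *Eef2kmt* and *Eef1akmt2*, which modify elongation factors, had 22.7 ± 4.04, 19.3 ± 5.51 and 4.00 ± 3.46 normalised reads in their strongest peaks. That of *Eef2kmt* lay in an intron, 1458 bp downstream of the listed start, whereas the promoter peak of this gene had 5.33 ± 1.53. The intron peak was within 1000 bp of a start of *Gm15983*, and the *Eef1akmt1* peak of a start of *1700039M10Rik*. *Eef1akmt2* was listed at 0 in replicate 2.

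Member peaks were close to gene starts. A promoter peak was defined by a centre within 1000 bp of the start of its gene, which held for 46 of the 56 members (82.1%, 95% Wilson interval 70.2 to 90.0%) against 68.4% of all symbol peaks. The intervals here and below cover counting error only. With the start of any annotated transcript of the gene the share was 91.1% in members and 74.7% in all symbol peaks. *Eif4e*, *Rps2*, *Rps24*, *Eef1a1* and the weaker *Rps26* peak became promoter peaks in this way. The centre lay upstream of or at the start in 42 of 56 members (75%, 62.3 to 84.5%) and in 63.9% of all symbol peaks.

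CCAAT within 50 bp of the peak centre was no more frequent in members than elsewhere. It was found on either strand in 31 of 56 members (55.4%, 42.4 to 67.6%) against 59.1% of all symbol peaks. Among promoter peaks it was found in 26 of 46 members (56.5%, 42.2 to 69.8%) against 65.4%. Over the whole peak, 30 of 46 promoter members (65.2%, 50.8 to 77.3%) had a box against 80.1% of all promoter peaks, the upper limit of the interval lying below this share. A longer consensus, RRCCAATSR, was within 50 bp in 13 members (23.2%) and 30.2% of symbol peaks. In ribosomal members CCAAT was near the centre in 16 of 32 and in factor members in 15 of 24, with Wilson intervals of 33.6 to 66.4% and 42.7 to 78.8%, which overlap.

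The level followed the number of boxes. Members without a CCAAT in the peak had a median of 12.3 normalised reads (21 peaks), members with 1 box 26.8 (18 peaks) and members with 2 or more boxes 85.7 (17 peaks). The median length was 155, 203.5 and 344 bp in these classes. Per kb the medians were 63.6, 134 and 203 normalised reads. The same order was seen in all promoter peaks, with 67.0, 100 and 210 per kb. Boxes were counted over the whole peak, so a longer peak has more room for them. Values per kb do not correct for this. The strongest member without a box was *Eif5a*, at 36.7 normalised reads, and 20 of the 35 members with a box were above it.

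The 35 peaks with a box held 61 boxes, of which 40 were on the strand of the gene (65.6%). In promoter members the share was 35 of 54 (64.8%, 51.5 to 76.2%), compared with 51.1% of the 5722 boxes in all promoter peaks. The median box in promoter members lay 82.5 bp upstream of the start and the quartiles lay at 140 and 35.8 bp. For all promoter peaks the median was 64 bp, with quartiles of 143 and 9 bp. Boxes of 1 peak are not independent of each other, and *Eif2ak3* alone gave 9.

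**Figure D2:**
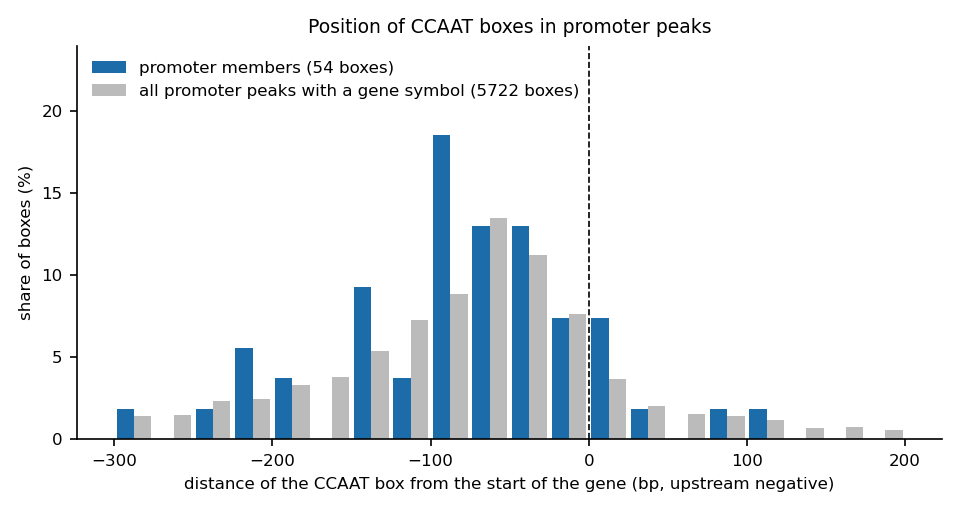
Share of CCAAT boxes (%) in bins of 25 bp by distance from the start of the gene (bp, upstream negative), for 54 boxes in promoter members (blue) and 5722 boxes in all promoter peaks with a symbol (grey). Boxes farther away than the axis are not drawn. In members the fullest bin, 75 to 100 bp upstream, held 10 of 54 boxes (18.5%), against 8.84% in all promoter peaks. The bins beside it held 13.0% against 13.5% (50 to 75 bp upstream) and 3.70% against 7.25% (100 to 125 bp upstream).

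Other motifs were counted within 100 bp of the centre, on both strands. The ETS-type motif CGGAAG was in 20 of 46 promoter members (43.5%, 30.2 to 57.8%) and in 23.8% of all promoter peaks. The YY1-type motif AANATGGC was in 7 promoter members (15.2%, 7.57 to 28.2%) and 4.97% of all. GGGCGG, a GC box, was in 65.2% and 60.8%, CACGTG in 13.0% and 8.21% and TATAAA in 4.35% and 3.75%, respectively. For the last 3 motifs the share of all promoter peaks lay inside the interval of the members. A match is a description of letters and does not show a bound factor.

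Replicate 1 was low at many members. It was below both other libraries in 30 of 56 members (53.6%, 40.7 to 66%) against 32.1% of all symbol peaks. The share was 20 of 32 in ribosomal protein genes (62.5%, 45.3 to 77.1%) and 10 of 24 in factors (41.7%, 24.5 to 61.2%). With summed reads in peaks as library size it was 51.8% in members and 28.1% in all. Peaks are not replicates, so these shares describe these libraries.

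The largest deviations lay in members without a CCAAT. Replicate 1 was below 0.5 times the mean of replicates 2 and 3 in 6 members, against 4.2% of all symbol peaks. They included *Rpl36* with 4, 21 and 20 normalised reads, *Rps26* with 13, 28 and 25, *Eef2*, *Eef1a1* and *Eif5a*, and none of the 6 had a box. Among promoter peaks without CCAAT this held for 5 of 16 members (31.2%, 14.2 to 55.6%) and 10% of all. Among those with CCAAT it held for 0 of 30 members and 1.77% of all, so the difference by box was not particular to members. Promoter peaks without CCAAT were also weaker, with a median of 12.8 normalised reads in members and 10.3 in all. With CCAAT the medians were 46.2 and 44, so box and level cannot be told apart here. Being below both others occurred in 32% of all promoter peaks without CCAAT and 33.1% of those with it. In promoter members it occurred in 8 of 16 and 16 of 30, respectively. In 55 of 56 members (98.2%) every 38-base word of the peak was unique in the genome, against 94.9% of all symbol peaks. Replicate 1 was sequenced with reads of 38 bases and replicates 2 and 3 with reads of 61 bases, so read length and whatever else set replicate 1 apart cannot be told apart here.

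**Figure D3:**
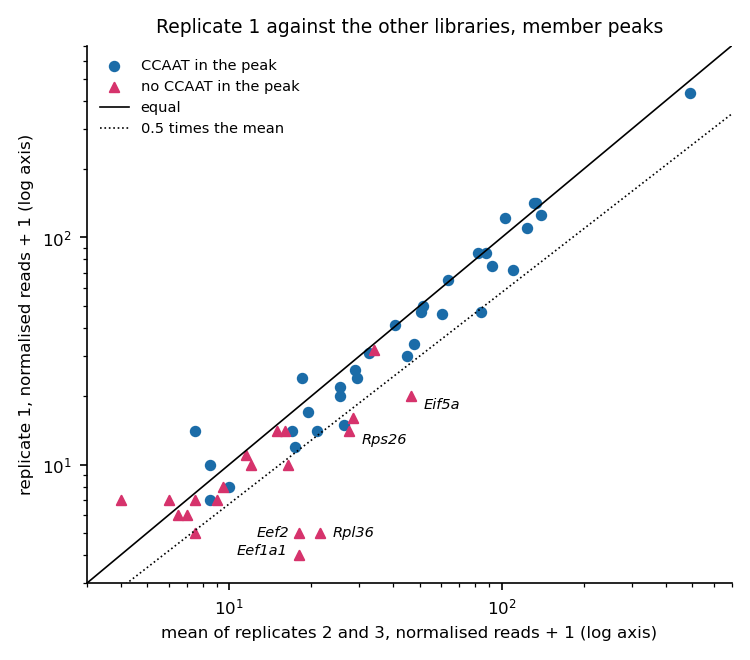
Replicate 1 against the mean of replicates 2 and 3, both as normalised reads plus 1 on log axes, for member peaks with (blue circles) and without (red triangles) CCAAT. The named peaks fall below the dotted line at 0.5 times the mean, and each of them lacks CCAAT.

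Most genes of translation had no listed peak. Of 79 ribosomal protein genes, 27 had a peak (34.2%, 24.7 to 45.2%), among them *Rpsa*, which the symbol rule does not reach, compared with 18.9% of 21938 protein-coding genes. The large subunit had 15 of 47 and the small subunit 12 of 32. Of 54 initiation and elongation factor genes, 14 had a peak (25.9%, 16.1 to 38.9%), an interval that includes the share of all genes. No peak was listed for the 6 genes of eIF2 and eIF2A, and eIF3 had 2 of 14. By contrast elongation factors had 4 of 8 (21.5 to 78.5%), the group of eIF5, eIF5A, eIF5B and eIF6 had 3 of 5 (23.1 to 88.2%) and regulators had 7 of 15 (24.8 to 69.9%). The denominator includes genes that are not expressed in these cells, which was not measured here.

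Translation genes outside the symbol rule gave 26 of 85 with a listed peak (30.6%, 21.8 to 41.0%), against 18.9% of all protein-coding genes. With any peak at a transcript start, also one listed under a neighbouring gene, it was 30 of 85 (35.3%). For all protein-coding genes that share was 19.1%. *Mtor*, the kinase that couples growth signals to translation, had the strongest with 242, 260 and 268 normalised reads (257 ± 13.3, SD, n = 3). Of the other genes on the TORC1 list, *Rheb*, its activating GTPase, had 120 ± 12.9, and *Rptor* had 16 ± 6.0, among 4 of 11 genes with a peak. Aminoacyl-tRNA synthetase genes had 8 of 21, led by *Iars* with 129 ± 16.9, *Aars* with 119 ± 11 and *Qars* with 115 ± 5.86. Ribosome biogenesis had 8 of 31, with *Ncl* (nucleolin) at 92 in each library, *Nhp2* at 37.3 ± 12.7 and *Nop56* at 37.0 ± 17.8. Release and recycling factors had 3 of 10, with *Etf1*, the release factor, at 133 ± 22.5, *Ltn1* at 70.3 ± 7.23 and *Denr* at 5.33 ± 1.53 normalised reads.

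**Figure D4:**
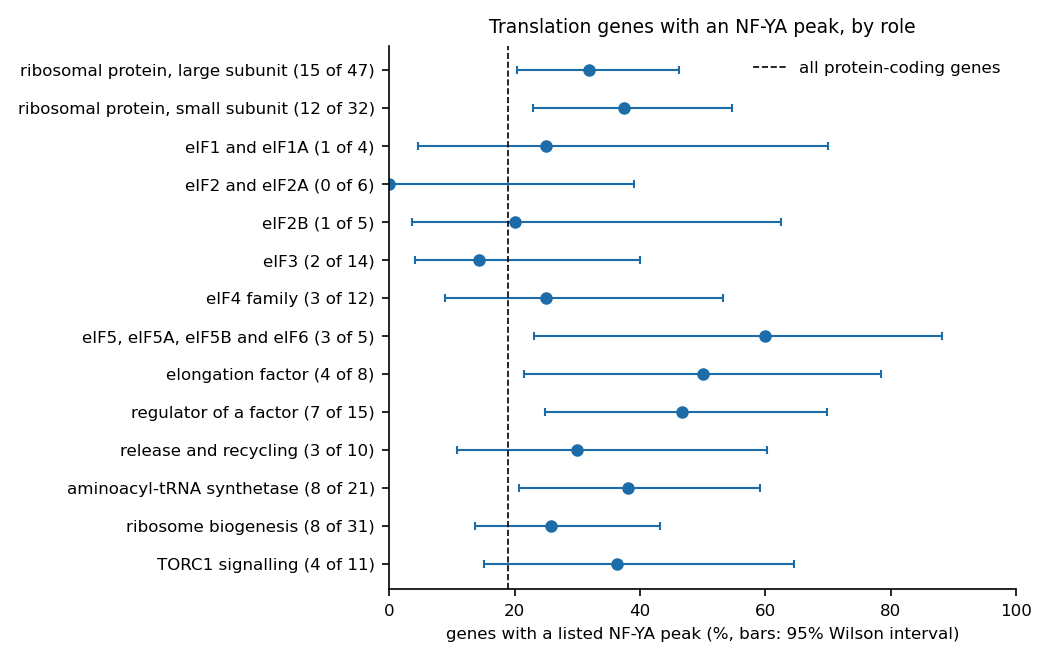
Share of genes with a listed NF-YA peak (%) in each role group, with 95% Wilson intervals and the counts in the labels. The dashed line marks all protein-coding genes (18.9%), which lies below the intervals of both ribosomal subunits, the eIF5 and eIF6 group, elongation factors, regulators and synthetases and inside those of the other groups.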

How the data were processed

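NF-YA CUT&RUN was analysed in 3 libraries of cultured wild-type MuSCs. According to their methods, the authors trimmed reads with Trimmomatic 0.39, aligned them with STAR 2.7.9a to mm10 (Ensembl 101), removed duplicates (Picard 2.25.5) and spliced, multi-mapping, ribosomal and mitochondrial reads, called peaks with MACS at an FDR below 0.05, unified the peaks, counted with featureCounts and normalised with DESeq2 1.30.0. Peaks were annotated to the nearest gene within 10000 nt of its start. The deposited values are a score, namely size-factor-scaled reads that the authors rounded. This scaling hides any shift that affects every peak alike.

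Starts in the file are counted from 0 and are printed counted from 1. Sequence and transcript starts came from GRCm38 and GENCODE M21, which gave the same gene start and end for all 56 members. Members, gene lists and motifs were chosen with earlier results of these data known. Member peaks were grouped by role. Values were given in each library for the 3 highest peaks of a role and the weakest members, and a few members entered the counts and medians but are not reported here by name or in the plots of single peaks. The value of a read was estimated from the whole numbers that occur. On simulated data of 9056 peaks its error was at most 0.0615% for 6 drawn values of a read. It reached 9.13% in 3 simulations with round values, which put scaled reads exactly on a rounding boundary. The search for unique words of 38 and 61 bases was also tested on simulated data. Only libraries of 1 group had values, so shares with 95% Wilson intervals and mean ± SD are given and no test. Alternatives were per-kb values, promoter peaks, the strongest peak per gene, a minimum mean of 10, other distances and windows, summed reads as library size and leaving out each library. All columns of library values were assigned to a sample (0 left over). Python 3.11.15 with numpy 2.4.6, pandas 2.3.3, scipy 1.17.1, pysam 0.24.0 and matplotlib 3.10.9 was used.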

Additional observations from a re-analysis of the deposited data

Results flagged for a closer look

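Peaks at the starts of 4 genes with symbols of the rule were listed under a neighbouring gene. They are therefore not among the members, although their own gene had no listed peak. *Yars*, *Rrp9*, *Sbds* and *Akt1s1*, outside the rule, also had a peak at a start and none listed under their own name. The peak listed for *Syngr1*, 11 bp downstream of an *Rpl3* start, had 5, 24 and 29 normalised reads (mean 19.3). That listed for *Nkiras1*, 46 bp upstream of an *Rpl15* start, had 11, 18 and 25 (mean 18). That listed for *Rab13*, 75 bp upstream of an *Rps27* start, had 4, 24 and 15 (mean 14.3). The peak listed for *Txndc9* lay 746 bp upstream of an *Eif5b* start and had 25, 21 and 20 (mean 22). The peaks at *Rpl3*, *Rpl15* and *Rps27* had no CCAAT, and replicate 1 was lowest at each. They were chosen after the values were seen, and binding was not assigned to either gene of a pair.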

How the results depend on the processing

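Of 42 alternative values, 33 differed from the reported value by less than its error and 9 moved. The level of members against other peaks (log2 -0.03) went to -0.31 ± 0.34 among promoter peaks only and -0.24 ± 0.18 with the strongest peak per gene. The promoter share became 94.6% at 5000 bp and 91.1% with any transcript start, and the CCAAT share 23.2% with the longer consensus. The median CV was 12.9% to 17.7% over the pairs of libraries left after dropping 1 of them, lowest without replicate 1 or 2. The ribosomal to factor ratio (log2 -0.57) was -0.83 with the strongest peak per gene and -1.02 with structural members only. It kept its sign in every setting and ran from -0.44 without replicate 1 to -0.65 without replicate 3 when 1 library was left out. The causes were not tested. The settings for replicate 1 in members without CCAAT were chosen after seeing the data, and the median log2 ratio of replicate 1 to the others ranged from -0.42 to -0.19. No paired analysis was possible because values were at hand for NF-YA libraries alone. Depth limits the weak members: at *Rps13*, *Eef1akmt2* and the weaker peaks of *Eif4e*, *Eef2kmt* and *Rpl13*, a few reads decide each value.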
